A study of Mus musculus with 12 samples.

Results

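Nuclear genes for oxidative phosphorylation and for the mitochondrial carriers that feed it were followed through gamma delta T cells of mouse skin-draining lymph nodes. Members were taken by symbol: rows starting with Ndufa, Ndufb, Ndufc, Ndufs or Ndufv (complex I), Sdha to Sdhd (complex II), Uqcr (complex III), Cox4 to Cox8 (complex IV) or Atp5 (complex V), plus the carriers Slc25a3, Slc25a4 and Slc25a5, without symbols that contain -ps. The rule goes by symbol and uses no measured value, but it was chosen with earlier results of these data known. It found 100 of the 45796 genes in the table. Sorted by symbol, they are 38 of complex I, 4 of complex II, 8 of complex III, 18 of complex IV and 15 of complex V. The rest are the 3 carriers and 14 assembly factors (names such as Ndufaf4 or Sdhaf1, and Atp5s and Atp5sl). Every other Nduf symbol was counted under complex I, whatever its role. All 100 matched a RefSeq gene by gene ID.

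Complexes I and II pass electrons from NADH and succinate to ubiquinone, complex III passes them to cytochrome c, and complex IV passes them to oxygen. Complexes I, III and IV pump protons across the inner mitochondrial membrane, and complex V, the ATP synthase, uses the return flow to make ATP. Slc25a3 carries phosphate into the matrix, and Slc25a4 and Slc25a5 exchange matrix ATP for cytosolic ADP. Resting T cells draw mainly on oxidative phosphorylation, and T cells that are activated raise both mitochondrial content and glycolysis.

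The cells carried the Vg4 and Vd4 receptor chains, and all mice were of the C57BL/6 strain. There were 4 groups of 3 libraries: wild-type mice given sham cream, NF-kB1-deficient mice given sham cream, wild-type mice given imiquimod cream, and NF-kB1-deficient mice given imiquimod cream. Imiquimod activates a Toll-like receptor and inflames mouse skin, and NF-kB1 gives rise to p50, a DNA-binding member of the NF-kB family. The sources used here give no dose, duration, age, sex or number of mice, and do not say which cells lack NF-kB1 or which allele was used. Whether replicates are separate animals is not stated, and the spread that p-values rest on may therefore be technical. In bulk samples, fewer cells of a type and less RNA per cell cannot be told apart.

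Depth was low. The steps between low values imply 20507 to 69454 reads on genes per library and 237 to 1101 reads on all members together, as estimates. No linear value lay between 0 and 1, and in 5 libraries 1 read was worth less than 1, so that a single read there is listed at 0. They were replicate 2 of the wild-type sham group, replicate 1 of the deficient sham group and all 3 NF-kB1-deficient imiquimod libraries, and no wild-type imiquimod library. In wild-type sham replicate 2, where 1 read was worth 0.488, 2 reads also fell below 1 and are listed at 0. Gapdh, a gene of all cells, was at 0 in 5 libraries. Nfkb1 was at 6.71, 4.38 and 1.24 in wild-type sham and at 7.34, 21.0 and 0 in wild-type imiquimod libraries, against 8.82, 1.09 and 2.52 and then 5.41, 6.64 and 5.84 in those labelled NF-kB1 deficient. All 6 libraries labelled deficient were above 0, and the 1 library at 0 was a wild-type one. These reads come from the 3' end and the altered part of the gene is not given, so this level does not check the genotype labels. Of the gamma delta T cell markers, the receptor delta chain entry Tcrd was above 0 in all 12 libraries (14.2 to 76.8). By contrast, 5 of the 12 markers, all of them receptor genes and the constant gene Trdc among them, were listed at 0 in every one. Tcrd was lowest in the wild-type imiquimod libraries, at 14.2, 30.5 and 19.8, and stood at 40.3 to 76.8 in the others. The markers of B cells (4 genes) and natural killer cells (3 genes) were listed at 0 throughout.

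The promoters of the members whose values carry the results are shown first, because many nuclear genes for respiration are known targets of NRF1 (nuclear respiratory factor 1), of ETS factors such as GABPA, and of YY1. RefSeq promoter entries (GRCm38.p6, from 250 bases before to 50 after the start) covered 84 of the 100 members and 25 of the 30 that were tested. Both strands were searched for 3 motifs, none of which holds another. The NRF1 consensus lay in 22 of the 84 member genes (26.2%), against 5.19% of all 27025 genes with an entry. The ETS motif CCGGAAGT lay in 5 (5.95%), against 4.31% of all genes. The YY1 consensus lay in 6 (7.14%), against 0.755%. A match describes these letters only and does not show binding. The first lines below give the upstream sequence of the 2 members that changed, cut off before any exon of the gene in GENCODE vM21. For Atp5g3 the entry starts at base 73911326, the 5' end of its longest GENCODE transcript, while RefSeq's span of the gene reaches on to base 73912464, so the stretch shown lies inside that span. The other lines give 30-base windows around each further NRF1 match in a tested member. All read 5' to 3' on the gene's strand, and capitals mark the NRF1 match on either strand.
Atp5g3 upstream, chr2:73911327-73911576, minus strand: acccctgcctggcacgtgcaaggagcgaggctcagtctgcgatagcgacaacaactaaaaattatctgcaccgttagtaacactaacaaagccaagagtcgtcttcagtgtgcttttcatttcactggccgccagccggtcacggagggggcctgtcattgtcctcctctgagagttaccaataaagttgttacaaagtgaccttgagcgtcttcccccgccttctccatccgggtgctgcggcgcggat
Slc25a3 upstream, chr10:91124060-91124217, minus strand: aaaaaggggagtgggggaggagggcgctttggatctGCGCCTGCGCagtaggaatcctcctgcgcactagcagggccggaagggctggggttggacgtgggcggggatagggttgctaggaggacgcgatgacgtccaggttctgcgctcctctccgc
Atp5g3, chr2:73911295-73911324, minus strand: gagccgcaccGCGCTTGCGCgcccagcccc
Atp5h, chr11:115420041-115420070, minus strand: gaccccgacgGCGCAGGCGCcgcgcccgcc
Atp5k, chr5:108434430-108434459, minus strand: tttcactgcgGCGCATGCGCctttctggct
Cox6a1, chr5:115349101-115349130, minus strand: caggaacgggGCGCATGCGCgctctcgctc
Cox6a1, chr5:115349056-115349085, minus strand: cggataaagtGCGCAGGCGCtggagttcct
Ndufa6, chr15:82354249-82354278, minus strand: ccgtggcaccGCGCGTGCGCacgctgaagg
Sdha, chr13:74350319-74350348, minus strand: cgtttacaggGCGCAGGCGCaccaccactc
Sdha, chr13:74350276-74350305, minus strand: ggggcgtgttGCGCAGGCGCagaatcttcc
Sdha, chr13:74350231-74350260, minus strand: gcgactcggtGCGCAAGCGCagtctgtcgc

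Counted from the start of the promoter entry, which can be 1 of several starts of a gene, the match began at base -214 in Slc25a3 and at base -50 in Atp5k. In Atp5g3 no match to the 3 motifs lay in the 250 bases before that start, and the NRF1 match began at base 13 after it. Sdha held 3 matches, at bases -98, -55 and -10. Of the 25 tested members with an entry, 7 held the NRF1 motif: Atp5g3, Slc25a3, Atp5k, Atp5h, Cox6a1, Ndufa6 and Sdha. In wild-type cells with imiquimod, Ndufa6 and Sdha had negative log2 fold changes and the others named had positive ones. Atp5k had the highest value among tested members and Sdha the lowest. Whether the motif bears on these values was not tested.

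Of the 100 members, 86 were above 0 in at least 1 library and 12 in all 12. The number above 0 ran from 29 to 67 per library. The 14 listed at 0 everywhere were Cox4i2, Cox6a2, Cox6b2, Cox7a1, Cox7b2, Cox8b and Cox8c, all alternative complex IV subunits of muscle, lung, testis or other tissues, Ndufa4l2 and Ndufs8, Atp5g2 and Atp5l, and the assembly factors Ndufaf1, Sdhaf4 and Atp5sl. Of the usual subunits of complex IV, Cox6c (mean over the 12 libraries 25.8) was the most abundant, and Cox4i1 averaged 2.45. The most abundant members of the other complexes were Ndufb3 in complex I (22.7), Sdhb in complex II (9.47), Uqcrc2 in complex III (16.3) and Atp5g3 in complex V (45.0). Slc25a3 led the carriers (33.7). The 10 pseudogene rows with -ps were all at 0. Whether reads shared with unlisted pseudogenes were counted is not given, so members with such copies are uncertain.

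Tests needed a mean normalized value of at least 5, which 30 members reached: 8 of complex I, 2 of complex II, 3 of complex III, 7 of complex IV, 7 of complex V and all 3 carriers, but no assembly factor. Atp5e was just outside this limit (4.90). A member could pass through 1 high group alone, so counts among the 30 are descriptions and do not speak for all 100. Differences are log2 fold changes of the normalized value + 1, with the standard error (SE) from limma, and calls were made at an adjusted p under 0.05 over all 1571 genes tested. The 4 comparisons share groups with each other, so their values are not independent.

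The summed value of all members made up a larger share of each wild-type imiquimod library than of any other library. The 3 wild-type sham libraries held 1.09%, 1.08% and 1.12%, and the 3 wild-type imiquimod libraries 2.33%, 2.25% and 2.25%. The NF-kB1-deficient libraries held 1.36%, 0.814% and 1.49% under sham cream and 1.64%, 1.35% and 1.41% under imiquimod. The wild-type imiquimod values were closely spaced and lay above the other 9 libraries, which ran from 0.814% to 1.64%. Their make-up was not alike: over replicates 1 to 3, complex I fell from 0.945% to 0.535% and 0.383%. Complex V rose from 0.483% to 0.696% and 0.739%. Group means over all members were 1.10% ± 0.0185 and 2.28% ± 0.0449 in wild-type cells, and 1.22% ± 0.358 and 1.47% ± 0.153 in NF-kB1-deficient cells (SD, n = 3 each). The ratio of imiquimod to sham was 2.08 in wild-type and 1.20 in deficient cells. Without Atp5g3 and Slc25a3 the ratios were 1.91 and 1.13, and over the 70 members under the limit for testing they were 2.10 and 1.51. With each library left out in turn, the ratio over all members ran from 2.05 to 2.10 in wild-type cells and from 1.03 (without sham replicate 2) to 1.35 in deficient cells. Without Atp5g3, Slc25a3 and sham replicate 2 the deficient ratio was 0.964. No p is given for a sum over members.

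**Figure D1:**
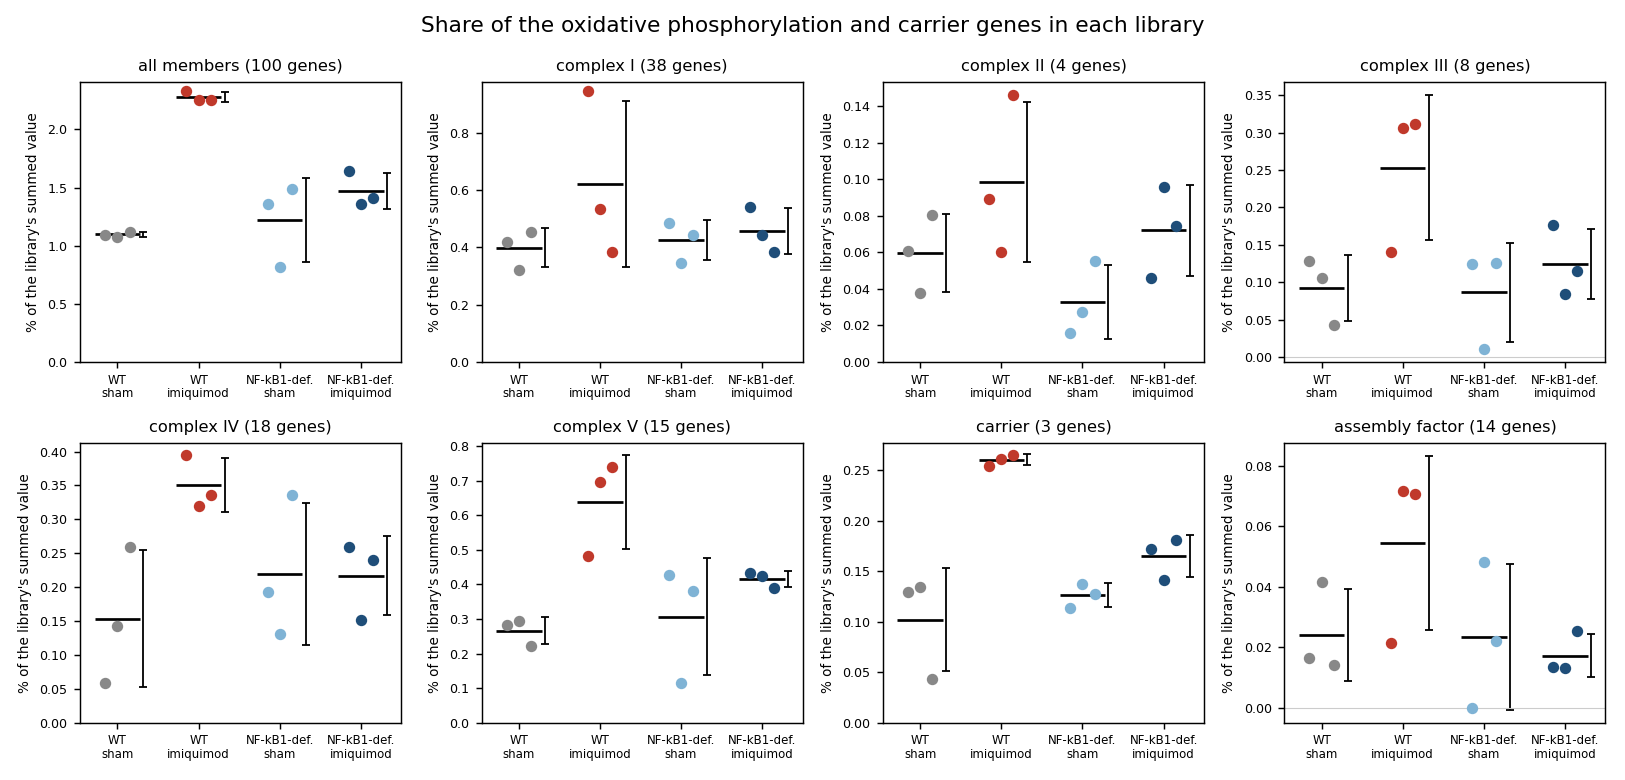
Each dot is 1 library and shows the summed normalized value of the named genes as a percent of the library's summed value, by group; lines are means and bars are 1 SD (n = 3). For all members the wild-type imiquimod dots lie at 2.25% to 2.33%, above the other 9 libraries, and the complex III, IV, V and carrier panels show no overlap between the wild-type groups.

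The complexes did not share this pattern equally. In wild-type cells the ratio of imiquimod to sham was 2.74 for complex III, 2.55 for the carriers, 2.40 for complex V and 2.29 for complex IV, and in these 4 classes all imiquimod libraries lay above all sham libraries. It was 2.26 for the assembly factors, 1.65 for complex II and 1.56 for complex I, whose libraries overlapped. In NF-kB1-deficient cells the ratio was 2.19 for complex II, 1.44 for complex III, 1.36 for complex V, 1.31 for the carriers, 1.07 for complex I, 0.987 for complex IV and 0.739 for the assembly factors. There, only the carrier libraries did not overlap: 0.114%, 0.137% and 0.127% under sham cream against 0.172%, 0.141% and 0.180% under imiquimod. Several of these ratios rested on 1 library. In deficient cells, leaving out sham replicate 2 turned the assembly factors from 0.739 to 1.56 and complex I to 0.982, and brought complex III to 0.9985 and complex V to 1.03. Leaving out sham replicate 3 moved complex II to 3.32 and complex IV to 1.34. Complex I was 0.973 without imiquimod replicate 1, and complex IV 1.14 without imiquimod replicate 2. In wild-type cells complex IV was 3.49 without sham replicate 3 and the assembly factors 3.56 without sham replicate 2. The wild-type ratios of complexes I and II leaned the other way, each raised by 1 imiquimod library. Complex I held 0.945%, 0.535% and 0.383% with imiquimod, against 0.419%, 0.323% and 0.455% under sham cream. Complex II held 0.0890%, 0.0604% and 0.146%, against 0.0606%, 0.0378% and 0.0805%.

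Other gene sets moved beside the members, and their part in these values was not tested. The mitochondrial ribosome (83 genes) had ratios of 2.91 in wild-type and 1.69 in deficient cells, glycolysis (21 genes) 2.30 and 1.16, mitochondrial import and chaperones (28 genes) 2.22 and 1.19. The tricarboxylic acid cycle (18 genes) had 1.31 and 1.12, porins and other carriers (26 genes) 1.04 and 0.914, and cytosolic ribosomal proteins (89 genes) 1.18 and 1.21. The deficient ratio of the tricarboxylic acid cycle was 2.47 without sham replicate 3 and 0.833 without sham replicate 2, and the wild-type ratio of the porins was 0.792 without imiquimod replicate 1. The gamma delta T cell markers, of which 7 of 12 were above 0, held 0.248% to 0.346% of the wild-type sham libraries and 0.0951% to 0.238% of the wild-type imiquimod libraries. In the deficient libraries they held 0.185% to 0.312% under sham cream and 0.208% to 0.254% under imiquimod. The general T cell markers, 5 of 5 above 0, held 0.132% to 0.221% and 0.112% to 0.190% in wild-type cells. In deficient cells they held 0.139% to 0.322% under sham cream and 0.219% to 0.364% under imiquimod.
Markers of macrophages, monocytes and dendritic cells were above 0 for 1 of 7 genes, at most at 0.00576% of a library. Plasma cell markers were above 0 for 4 of 4 genes, at up to 0.0179% of wild-type sham, 0.0398% of wild-type imiquimod and 0.0489% of NF-kB1-deficient imiquimod libraries, and were listed at 0 in the NF-kB1-deficient sham libraries. Alpha beta T cell markers were above 0 for 2 of 6 genes, at most at 0.0496% of a library, and keratinocyte markers for 1 of 3, at most at 0.0376%. Red cell markers reached 0.149% in NF-kB1-deficient imiquimod replicate 3 and at most 0.00983% in wild-type imiquimod libraries.

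In wild-type cells, 2 members rose with imiquimod: Atp5g3, which codes for the membrane ring subunit c of the ATP synthase, and Slc25a3, the phosphate carrier. None fell. Both calls rested on the choice of filter and of variance model, as given at the end of this comparison. In all, 25 of the 30 tested members had a positive log2 fold change, with a median of 1.02, against 48.1% of all tested genes and a median of -0.07. The 2 calls are 6.67% of the tested members, against 3.25% of all genes tested that were called in either direction 1.65% called higher and 1.59% called lower.

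Atp5g3 (Entrez 228033, chr2:73908447-73912464, minus strand) in wild-type cells stood at 33.0, 13.4 and 15.5 under sham cream and at 87.0, 67.4 and 118 with imiquimod. Every imiquimod library exceeded every sham library. The means were 20.6 ± 10.7 and 90.7 ± 25.4 (SD, n = 3), a difference of 2.15 on the log2 scale (SE 0.49, 95% interval 1.18 to 3.13), with an adjusted p of 0.00284 in limma. In NF-kB1-deficient cells it stood at 19.5, 16.4 and 40.9 under sham cream and at 43.6, 52.7 and 32.8 under imiquimod, which overlap.

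Slc25a3 (Entrez 18674, chr10:91116574-91124046, minus strand) in wild-type cells stood at 21.8, 22.5 and 9.32 under sham cream and at 50.8, 62.1 and 74.1 with imiquimod. Again no library of one group reached the other. The means were 17.9 ± 7.40 and 62.3 ± 11.6 (SD, n = 3), and the log2 fold change was 1.83 (SE 0.54, limma adjusted p = 0.0358). Without wild-type sham replicate 3, the sham library with the lowest Slc25a3, it was 1.44 with an adjusted p of 0.181. The NF-kB1-deficient libraries held 24.6, 16.4 and 16.9 under sham cream and 39.6, 27.5 and 38.8 under imiquimod, where the groups did not overlap either but the change was not called.

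**Figure D2:**
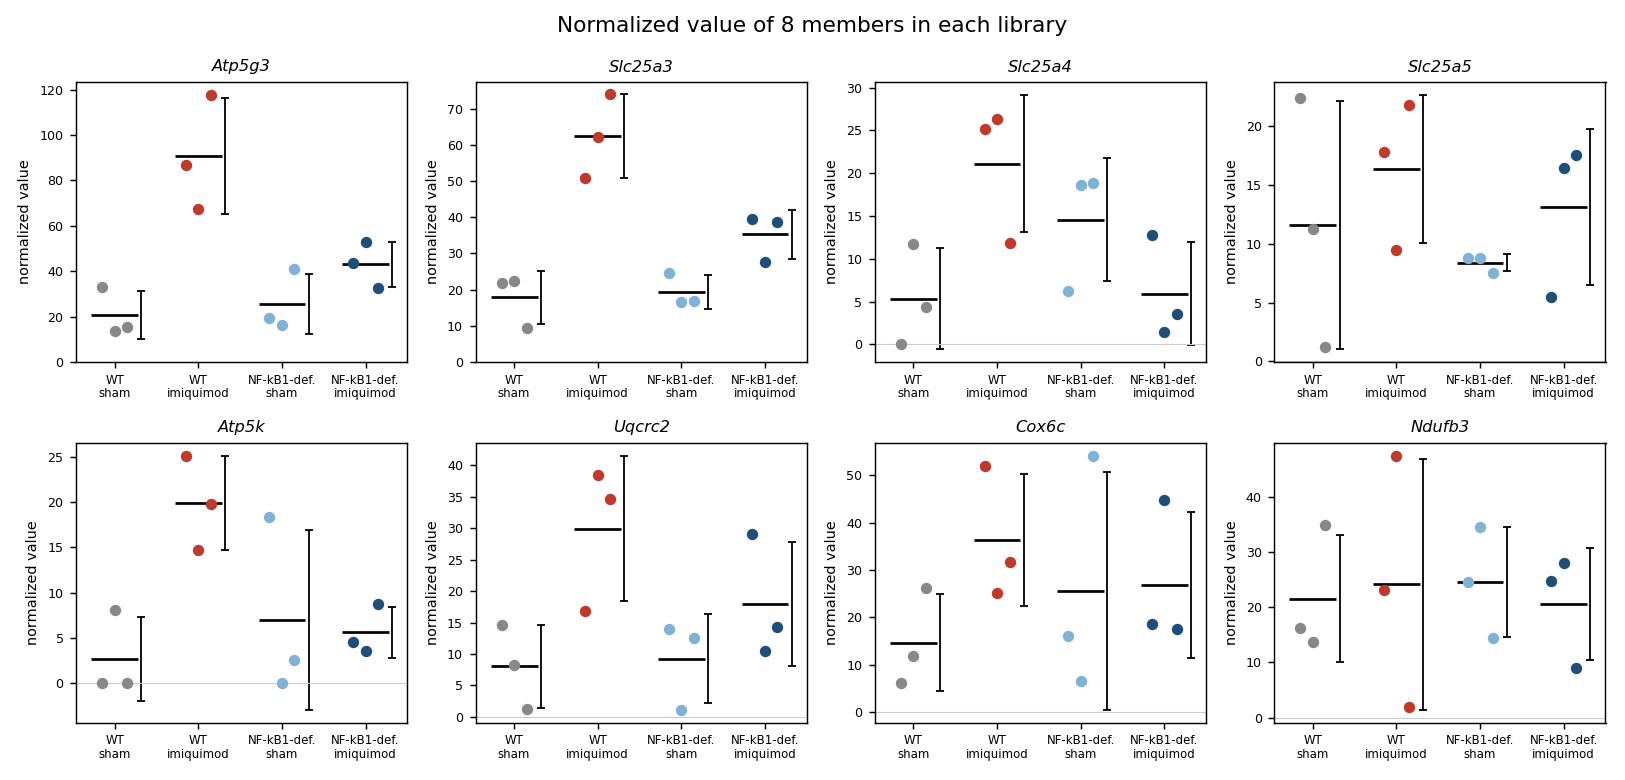
Each dot is the normalized value of 1 library for 8 members, chosen to show the 3 carriers and the leading subunits, by group; lines are means and bars are 1 SD (n = 3). Atp5g3 and Slc25a3 show no overlap between the wild-type groups, whereas Slc25a5, Cox6c and Ndufb3 do overlap.

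The other members are given by complex, with none called. In complex V, Atp5k (subunit e) was at 0, 8.05 and 0 in wild-type sham libraries and at 25.2, 14.7 and 19.8 with imiquimod, with a difference of 3.30 (SE 1.17, adjusted p = 0.0951 in limma). Atp5h, subunit d, had 2.50 and Atp5a1, the catalytic core subunit alpha, 1.28. Atp5j (coupling factor 6) went the other way, at 16.8, 11.0 and 29.8 under sham and 12.6, 10.5 and 1.98 with imiquimod, with a difference of -1.27 (SE 0.91, adjusted p = 0.456 in limma). Complex V thus held both positive and negative values, and of its 7 tested members Atp5g3 alone was called.

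Among the carriers, Slc25a4 (Ant1) was at 0, 11.7 and 4.35 under sham cream and 25.2, 26.3 and 11.9 with imiquimod, with a log2 fold change of 2.36. Slc25a5 (Ant2), the adenine nucleotide carrier typical of dividing cells, held 22.4, 11.2 and 1.24 under sham cream and 17.8, 9.47 and 21.8 with imiquimod, a difference of 0.94 (95% interval -0.90 to 2.78). Slc25a4 did not overlap between the groups, and Slc25a5 did.

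In complex IV all 7 tested members had a positive log2 fold change, from 0.27 for Cox5a to 3.06 for Cox8a. Cox5a, Cox6a1 and Cox7a2 turned negative when 1 library was left out (-0.80, -0.14 and -0.24 at the lowest). Cox8a was at 4.47, 0 and 0 under sham cream and at 9.96, 31.4 and 7.92 with imiquimod. Cox7b was at 0, 7.57 and 9.94 and then at 22.0, 10.5 and 49.5, with 2.39. Neither overlapped between the groups, though several sham libraries were at 0. Cox6c, the most abundant, was at 6.15, 11.7 and 26.1 and then at 51.9, 25.2 and 31.7, which overlap, with 1.40.

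In complex III, Uqcrc2, a core subunit, was at 14.5, 8.30 and 1.24 under sham cream and at 16.8, 38.4 and 34.7 with imiquimod, a log2 fold change of 2.09. Uqcrh, the hinge protein, was at 3.91, 7.97 and 9.32 and then at 10.5, 18.9 and 30.7, with 1.33. Uqcrfs1, the Rieske iron-sulfur subunit, had 1.12, with imiquimod libraries at 0, 25.8 and 19.8. Uqcrc2 and Uqcrh did not overlap between the groups, and Uqcrfs1 did.

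Complexes I and II held 4 of the 5 negative values. Sdha, the flavoprotein of complex II, was at 16.2, 5.48 and 16.8 under sham cream and 0, 8.42 and 1.98 with imiquimod, with a difference of -2.05 (SE 1.17, adjusted p = 0.319 in limma). Its partner Sdhb, the iron-sulfur subunit, ranged in the imiquimod libraries from 0 to 53.5. Ndufb3, an accessory subunit and the most abundant of complex I, was at 16.2, 13.7 and 34.8 and then at 23.1, 47.4 and 1.98. Its log2 fold change of -0.46 turned to 0.71 without wild-type imiquimod replicate 3. Ndufa13 had -0.25 and Ndufa6 -0.17, and the other 5 tested members of complex I ran from 0.58 for Ndufb5 to 1.43 for Ndufa2. With 1 library left out, Ndufa13 and Ndufa6 turned positive (0.32 and 0.36 at the highest). Positive members such as Ndufb5 and Ndufa3 turned negative (-0.96 and -0.26 at the lowest). In complex I no member separated the groups.

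Over the 30 tested members, 8 had all wild-type imiquimod libraries above all wild-type sham libraries: Atp5g3, Slc25a3, Atp5k, Cox8a, Uqcrc2, Slc25a4, Cox7b and Uqcrh. That is 26.7%, against 10.7% of all genes tested, and 0 had all of them below, against 10.8%. At an unadjusted p under 0.05 there were 9 members higher and 0 lower, against 8.98% and 10.9% of all genes tested. With no limit on the mean, group means were higher with imiquimod for 63 of the 86 members above 0 (73.3%) and lower for 20. Of the members whose means were unequal 75.9% were higher, against 48.7% of such genes among all 9732 above 0. Of the 53 members under the limit whose means were unequal, 69.8% were higher, against 47.5% of such genes.

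**Figure D3:**
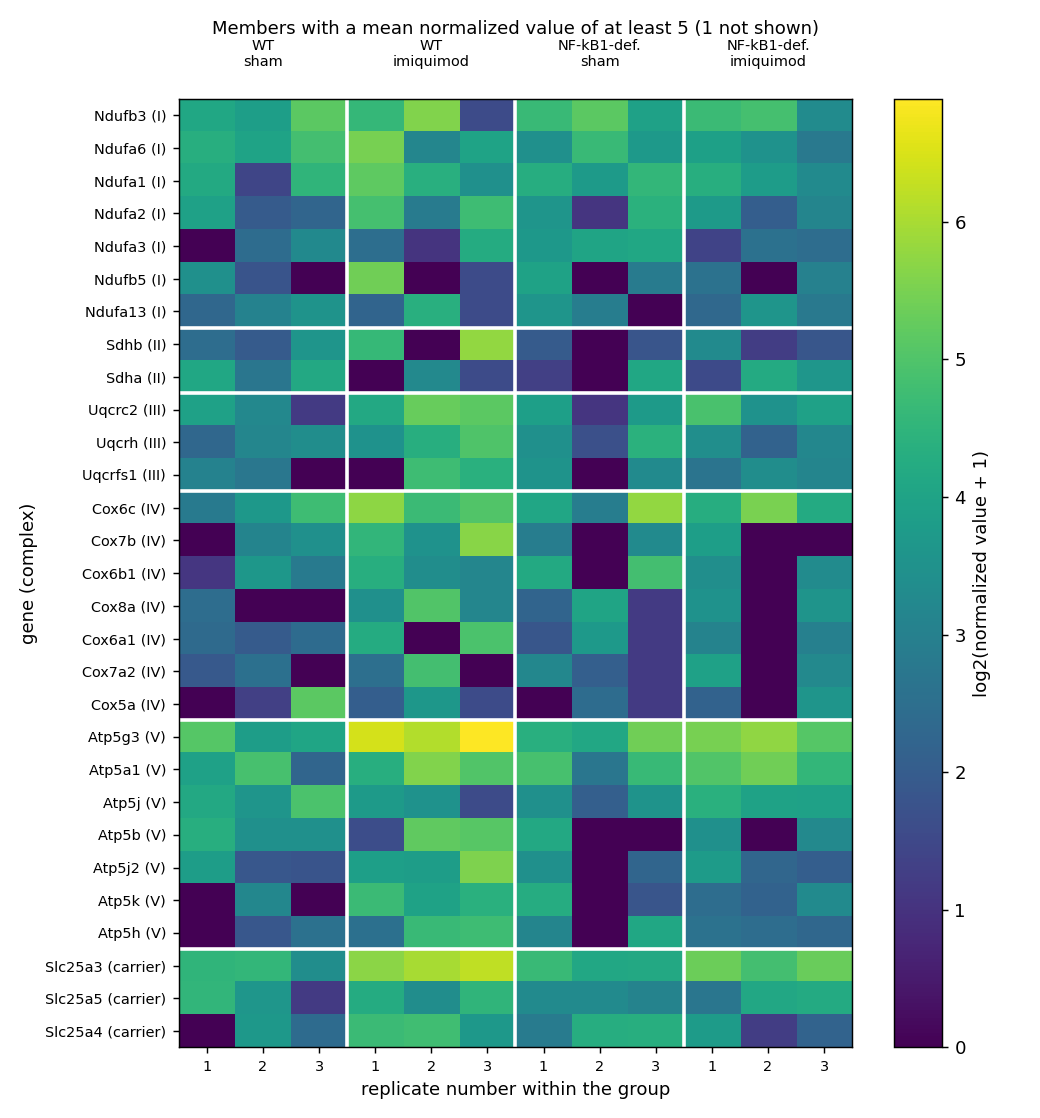
Color gives log2(normalized value + 1) of 29 of the 30 tested members (rows, with the complex in brackets) in the 12 libraries (columns, by group and replicate number). The Atp5g3 and Slc25a3 rows are brightest in the 3 wild-type imiquimod columns, and many other rows hold libraries at 0.

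These calls were few and leaned on settings. Without the limit on the mean 0 members were called (limma adjusted p = 0.144 for Atp5g3 and 0.506 for Slc25a3), and 0 without the trend and robust options (0.140 and 0.162). Slc25a3 also lost its call under 4 other settings given in the last section, where Atp5g3 stayed called.

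In NF-kB1-deficient cells no member was called with imiquimod, and 0 of all 1571 genes tested were either, a background of 0%. Positive values came from 17 of the 30 tested members (all genes 56.0%), with a median of 0.32 against 0.14 for all genes. Without NF-kB1-deficient sham replicate 2 the median was -0.08 with 14 of 30 positive, and without NF-kB1-deficient imiquimod replicate 1 it was 0.10 with 15. Without imiquimod replicates 2 and 3 in turn it was 0.57 and 0.15. None of the 30 members reached an unadjusted p under 0.05 in limma, against 3.37% of all genes, 2.1% higher and 1.27% lower. The largest positive value was 1.32, for Sdha. With no limit on the mean, 52 of the 86 members above 0 had a higher group mean and 29 a lower one, which is 64.2% higher of those unequal, against 53.5% of all such genes. Of the 51 members under the limit whose means were unequal, 70.6% were higher, against 54.4% of such genes. In wild-type cells the same shares were 69.8% and 47.5%, so members under the limit leaned upward in both genotypes.

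The members with the lowest p on the positive side were the ones of the ATP synthase and the phosphate carrier. Atp5g3 had a log2 fold change of 0.81 (SE 0.49, 95% interval -0.16 to 1.79), Slc25a3 0.84 (SE 0.54, -0.23 to 1.91) and Atp5a1 0.92 (SE 0.66, -0.38 to 2.22). These intervals hold 0 and also values above 1, so an absence of change is not shown either. On the negative side, Ndufa3, an accessory complex I subunit, was at 11.9, 15.3 and 16.4 under sham cream and 1.61, 4.89 and 4.54 with imiquimod, with -1.81 (SE 1.13). Slc25a4 was at 6.25, 18.6 and 18.9 and then at 12.8, 1.40 and 3.57, with -1.41 (SE 1.04). For all 5 the limma adjusted p was 0.996. Slc25a3 and Atp5j had all imiquimod libraries above all sham libraries (6.67% of members, against 6.11% of genes), and Ndufa3 all of them below (3.33% against 5.6%).

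**Figure D4:**
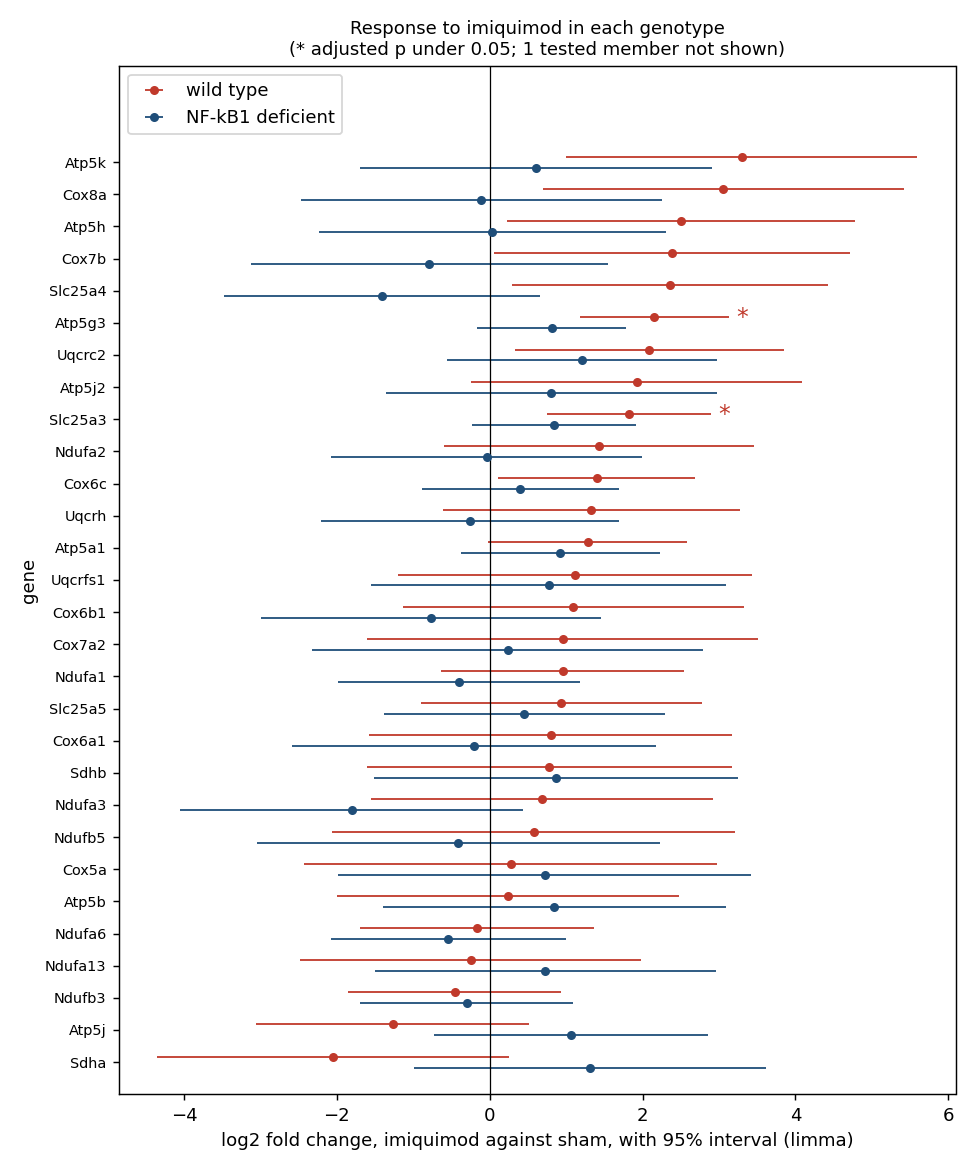
Points are log2 fold changes of imiquimod against sham for 29 of the 30 tested members in wild-type (red) and NF-kB1-deficient cells (blue), with 95% intervals from limma; a star marks an adjusted p under 0.05. Wild-type points lie right of 0 for 24 of those drawn and deficient points for 17, and most intervals include 0.

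Under sham cream the genotypes differed in no called member, and in 0 of the 1571 genes tested (0%). Of the 30 tested members 20 were higher in NF-kB1-deficient cells (all genes 48.6%), with a median of 0.26 against -0.02. Only 1 member had an unadjusted p under 0.05: Atp5b, the catalytic beta subunit, was at 19.0, 10.02 and 9.94 in wild-type and at 16.9, 0 and 0 in deficient libraries, with -2.36 (SE 1.13, limma adjusted p = 0.809), against 3.63% of genes lower at that p and 2.48% higher. The deficient libraries overlapped the wild-type ones for Atp5b through replicate 1. Atp5j was lower in all deficient libraries (9.92, 3.28 and 10.7, with -1.19), and Ndufa3 was higher in all of them (wild type 0, 4.39 and 8.69, with 2.04). These single members are 3.33% of the 30 in each direction, against 4.65% and 4.71% of genes. Sdha had -1.84, Slc25a4 1.79 and Cox8a 1.66, all with a limma adjusted p above that of Atp5b. The lean of 20 of 30 members rested on single libraries. The median was 0.91 with 21 positive without NF-kB1-deficient sham replicate 2, which held the lowest member share. Without wild-type sham replicate 3 and NF-kB1-deficient sham replicates 1 and 3 in turn it was -0.02, -0.02 and -0.01, each with 15 of 30 positive.

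With imiquimod in both genotypes, values were lower in NF-kB1-deficient cells for 24 of the 30 tested members, and no member was called. In that comparison 1.78% of all genes tested were called, 1.27% higher and 0.509% lower. The median of the members was -0.81 against 0.13 for all genes, and positive values came from 6 of 30 members and 53.7% of genes. With no limit on the mean, the group mean was lower for 60 of 86 members and higher for 23, which is 27.7% higher of those unequal, against 54.8% of all such genes. Among the imiquimod libraries, the deficient ones are the 3 in which a single read is listed at 0, and the part of this in the lower values was not tested.

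Atp5g3 was lower in every deficient library, with a log2 fold change of -1.05 (SE 0.49, 95% interval -2.02 to -0.07, limma adjusted p = 0.289). Cox7b, a small complex IV subunit, was at 13.5, 0 and 0 in the deficient imiquimod libraries, with -3.28 (SE 1.18, limma adjusted p = 0.150). These were the 2 members lower at an unadjusted p under 0.05, against 5.41% of genes, and 0 members were higher at that p, against 8.91%. All deficient libraries lay below all wild-type ones for 5 members: Atp5g3, Slc25a3, Atp5k, Uqcrh and Atp5j2 (subunit f of the ATP synthase). That is 16.7% of members, against 10.3% of genes. Atp5j was the 1 member with all of them above (3.33% against 10.8%), at 19.9, 14.7 and 14.3, with 1.14. Slc25a4 had -1.98 (SE 1.04, limma adjusted p = 0.371), Sdha 1.52 and Ndufb3 0.37, the last turning to -0.80 without wild-type imiquimod replicate 3.

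The difference between the imiquimod responses was tested directly as the genotype by treatment term, and no member was called, against 0.446% of all genes tested (0.191% higher and 0.255% lower). Its value, the deficient response less the wild-type response, was negative for 23 of the 30 members, with a median of -0.99 against 0.24 for all genes. The member with the lowest p was Slc25a4, with -3.77 (SE 1.48, 95% interval -6.69 to -0.85, limma adjusted p = 0.304), whose own responses were 2.36 in wild-type and -1.41 in deficient cells. Atp5g3 had -1.34 (SE 0.70, limma adjusted p = 0.484) and Cox7b -3.17 (limma adjusted p = 0.492). On the other side stood Sdha with 3.36 (SE 1.65, limma adjusted p = 0.449) and Atp5j with 2.33 (limma adjusted p = 0.510). At an unadjusted p under 0.05 stood Sdha alone on the positive side, against 6.81% of genes, and Slc25a4 alone on the negative, against 3.95%. Slc25a3, picked here after its values were seen because it was called in wild-type cells, had -0.98 (95% interval -2.50 to 0.53), so that its response is not shown to differ between genotypes. The 95% interval of a member in a comparison of groups reached a median of 2.23 log2 units to either side, which is wide beside the median differences given above.

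The wider pathway gave no calls. Over 10 lists of related genes (the mitochondrially encoded subunits, cytochrome c and further subunits, assembly factors, the tricarboxylic acid cycle, glycolysis, porins and carriers, import and chaperones, biogenesis regulators, antioxidant enzymes and the mitochondrial ribosome), 28 genes were tested. In wild-type cells 23 were positive with imiquimod and 5 negative (48.1% of all tested genes were positive), and in deficient cells 20 and 8 (56.0%). In deficient against wild-type cells 12 were positive and 15 negative under sham cream (48.6%), and 5 and 23 under imiquimod (53.7%). In the interaction 11 were positive and 17 negative (55.0%). Of the 28 genes 0 were called in each of the 5 comparisons, against 3.25%, 0%, 0%, 1.78% and 0.446% of all genes tested. The lowest p in wild-type cells belonged to Hspe1, the mitochondrial co-chaperonin, with 2.14 (limma adjusted p = 0.103), Ssbp1, which binds single-stranded mitochondrial DNA, with 3.12 (0.115), and Ldha, which makes lactate from pyruvate, with 1.61 (0.133). In deficient against wild-type cells under imiquimod the lowest belonged to Ldha with -1.85 (0.126), Hspe1 with -1.57 (0.336) and the tricarboxylic acid cycle enzyme Idh3b with -2.03 (0.430).

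Ldha was at 11.2, 21.5 and 18.01 in wild-type sham and at 48.2, 42.1 and 68.3 in wild-type imiquimod libraries, and at 9.56, 33.9 and 12.6 and then 7.51, 15.4 and 21.4 in the deficient ones. Its wild-type groups did not overlap, and its deficient groups did. The 13 protein genes of the mitochondrial genome, which code for the other subunits of complexes I, III, IV and V, were listed at 0 in all 12 libraries.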

How the data were processed

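RNA came from sorted gamma delta T cells (Trizol), and sequencing used the QuantSeq 3' FWD protocol, as the labels' protocols state. That kit reads near the 3' end, and longer transcripts give no more reads. The submitters' processing notes name mm10. Which aligner, annotation and normalization were used is not given in the sources used here. As log2 normalized read counts the authors deposited values for 45796 genes in 12 libraries, and 0 columns were left unused. Values were taken back to the linear scale (the normalized value), and a 0 is described only as listed at 0. Low values fell on steps: between 71.0% and 80.2% of values under 20 reads were whole to within 0.01 read, too few for a count test, and depths are therefore estimates. A library's share is a sum over members divided by its summed value, which ran from 31878 to 40618.

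Tests used limma 3.58.1 in R 4.3.3 on log2(normalized value + 1), over the 1571 genes with a mean of at least 5, with all 12 libraries in 1 fit of 4 group means, eBayes with trend and robust (8 residual and a median of 145 prior degrees of freedom), and the Benjamini-Hochberg adjustment over these genes. Changes of low genes come out too small on this scale. Named with a test were called members and the 3 lowest p-values in each direction; other members are given as values. Alternatives were other pseudocounts (0.1 and 10), other limits on the mean (none or 20), equal totals, quantile normalization, no trend or robust options, the compared groups alone, a replicate block, leaving out each library, and members without assembly factors. The members, gene lists and markers were chosen with earlier results of these data known. Members on chromosome 18 are given without coordinates or sequence. The single values of 1 tested member are not reported here; counts and medians include it.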

Additional observations from a re-analysis of the deposited data

How the results depend on the processing

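Members called between wild-type imiquimod and wild-type sham libraries, 2 as reported (Atp5g3 and Slc25a3), became 1 with a pseudocount of 0.1, with equal totals, with quantile normalization and with only the groups compared, and 0 with no filter and without trend or robust options. Leaving out each library gave 1 to 2. Wherever 1 was left it was Atp5g3, which kept its call without any of the 12 libraries (highest adjusted p 0.0344). Slc25a3 lost its call without wild-type sham replicate 3, without each wild-type imiquimod replicate and without NF-kB1-deficient imiquimod replicate 1 (adjusted p 0.181 at most); under the 4 settings above that left 1 call its adjusted p was 0.0518, 0.0607, 0.126 and 0.0565. The count stayed 2 with a pseudocount of 10, a mean of at least 20 and without assembly factors. In the other 4 comparisons 0 members were called under every setting run. Leaving out 1 library changed the sign of 13 of the 30 tested members in wild-type cells, 15 in deficient cells, 21 between the sham groups, 9 between the imiquimod groups and 12 in the interaction; Cox5a in wild-type cells ran from -0.80 to 1.78 and Ndufa6 from -0.81 to 0.36. Among members named with a test these were Ndufb3 in wild-type cells (-1.30 to 0.71) and between the imiquimod groups (-0.80 to 1.21), both by wild-type imiquimod replicate 3, and Ndufa13 in the interaction (-0.11 to 1.80), by NF-kB1-deficient sham replicate 3. The cause was not tested.

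The members' median with imiquimod in wild-type cells ran from 0.67 to 1.43 over these settings, between the imiquimod groups from -1.17 to -0.33, and in the interaction from -1.59 to -0.35; in deficient cells it ran from -0.08 to 0.81 and between the sham groups from -0.02 to 0.91. Equal totals moved the median of all genes by -0.17 in wild-type cells and by 0.20 between the imiquimod groups. The deviations of same-numbered replicates from their group means had correlations of -0.00983 to 0.0609. At this depth that check cannot tell whether the numbers pair the libraries. With the replicate block the counts were 2 and, in the other comparisons, 0. With 237 to 1101 estimated reads on all members per library, many single values rest on a few reads.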

Other observations

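Some members under the limit for testing, chosen after their values were seen, had higher means in wild-type imiquimod than in wild-type sham libraries, with no test. Their NF-kB1-deficient sham values are not given here. Uqcrc1, the partner of Uqcrc2 in the core of complex III, stood in wild-type cells at 0, 5.37 and 0 under sham cream and at 1.05, 15.8 and 15.8 with imiquimod. Ndufs4, an accessory subunit of complex I, was listed at 0 with wild-type sham cream and held 7.34, 0 and 18.8 with imiquimod. Ndufa11, also of complex I, was likewise listed at 0 and held 7.34, 2.11 and 11.9 with imiquimod. In the NF-kB1-deficient imiquimod libraries Uqcrc1 was at 6.01, 0 and 0, Ndufs4 at 0, 0 and 1.30, and Ndufa11 at 2.50, 4.89 and 0. Without the deficient sham values, a difference in response between the genotypes cannot be read from these. These values rest on few reads in each library.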
